A study of Mus musculus with 12 samples.

Results

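The subject is 44 genes of DNA replication and S phase, measured by polyadenylated RNA sequencing of mouse liver. They were taken from a fixed list of origin licensing, replication fork, nucleotide supply and replication-coupled chromatin genes, matched by symbol through the gene identifier in the deposited count files. All 44 were found among the 50600 annotated genes, and all 44 passed the filter on low counts that left 15219 genes for testing. Every mouse was of the strain Rosa26-LSL-dCas9-p300, which carries at the Rosa26 locus a nuclease-dead Cas9 joined to p300, a histone acetyltransferase, behind a stop cassette that Cre recombinase removes. At about 8 weeks of age the mice received PBS, an adeno-associated virus (AAV) with a control guide RNA (gRNA), or an AAV with a gRNA against Pdx1, and livers were taken 2 weeks later. Each group had 4 libraries, and both virus groups received 1e+12 viral genomes per mouse. The vectors are labelled AAV.Cbh.gRNA, and neither the source of Cre nor the cells in which it acted is given in the labels. The PBS mice carried the same allele and received no virus, so effects of the virus, of Cre, of the fusion and of any gRNA cannot be told apart in a comparison with PBS. Nothing in the labels says whether libraries of a group are separate mice, so a p-value covers only the spread among these libraries, which may be technical.

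Before a cell can copy its DNA, the origin recognition complex (ORC), Cdc6 and Cdt1 load the ring of Mcm2 to Mcm7 onto origins, a step called licensing. The kinase activated by Dbf4 then switches the ring on, and Cdc45 and the GINS complex join it to form the working helicase. Polymerase alpha with its primase starts each strand, polymerases delta and epsilon extend it on the Pcna clamp that replication factor C (RFC) loads, and ribonucleotide reductase supplies the deoxynucleotides. Many of these genes are transcribed under E2F factors as cells enter S phase, and most hepatocytes of an adult liver are quiescent.

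The PBS libraries held 11824767 to 17870498 assigned counts, the control gRNA libraries 16963079 to 22008046 and the Pdx1 gRNA libraries 13531769 to 18063529. Scaling factors (TMM, edgeR's correction for the makeup of each library) were 0.826 to 0.935, 1.02 to 1.22 and 0.935 to 1.19, so the PBS libraries were scaled differently from most virus libraries. PBS libraries 2 and 3 stood apart: they had 97.3 and 84.8 CPM (counts scaled to the library total times its TMM factor) of the Y-linked Ddx3y and 3.14 and 4.41 CPM of Xist, against at most 0.215 CPM of Ddx3y and at least 584 CPM of Xist in the other 10. High Ddx3y marks male tissue and high Xist female tissue, and the labels give no sex. The male pattern was thus found in the PBS group only, and the part of sex in the comparisons with PBS was not tested. The targeted gene, Pdx1, had 0 counts in each PBS library, 0, 0, 0 and 2 in control gRNA libraries 1 to 4, and 26, 32, 54 and 256 in Pdx1 gRNA libraries 1 to 4. Albumin (Alb), the main hepatocyte transcript, ranged from 36068 to 91188 CPM over the libraries labelled liver. The members were rare in this tissue: together they made up 0.0378 to 0.0465% of the counts in PBS libraries, 0.0609 to 0.0711% in control gRNA libraries and 0.0612 to 0.0879% in Pdx1 gRNA libraries.

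Most of the replication genes were higher after either virus than after PBS, and no member passed the test between the 2 virus groups. With control gRNA, 28 of the 44 members rose, 1 fell and 15 did not pass the test (edgeR's quasi-likelihood test, Benjamini-Hochberg adjusted over all 15219 genes, adjusted p under 0.05). Across all genes tested in that comparison 16.3% rose and 15.8% fell, 32.1% in all, so a call in itself was common. With Pdx1 gRNA, 29 members rose, 0 fell and 15 did not pass, beside 11.7% of all genes that rose and 10.4% that fell (22.1% in all). The median log2 fold change of the members from PBS was 0.80 with control gRNA, where that of all genes tested was -0.01, and 0.92 with Pdx1 gRNA, where that of all genes was -0.06. Both comparisons use the same 4 PBS libraries. Between Pdx1 gRNA and control gRNA 0 members were called, as were 0% of all genes by edgeR; at an unadjusted p under 0.05 there were 1 member and 918 genes, and DESeq2 called 0 members and 14 genes and limma-voom none of either. The members' median log2 difference there was 0.13. By library values, the control gRNA group lay wholly above PBS for 27 members and wholly below for 2, where 16.5 and 12.3% of all genes did (28.8% in all). The Pdx1 gRNA group lay wholly above PBS for 27 and below for 0 (12.7 and 8.74% of all genes, 21.4% in all), and wholly above control gRNA for 1 and below for 0 (3.48 and 3.17%, 6.65% in all). In a bulk sample, more cells in S phase and more RNA per cell cannot be told apart.

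**Figure D1:**
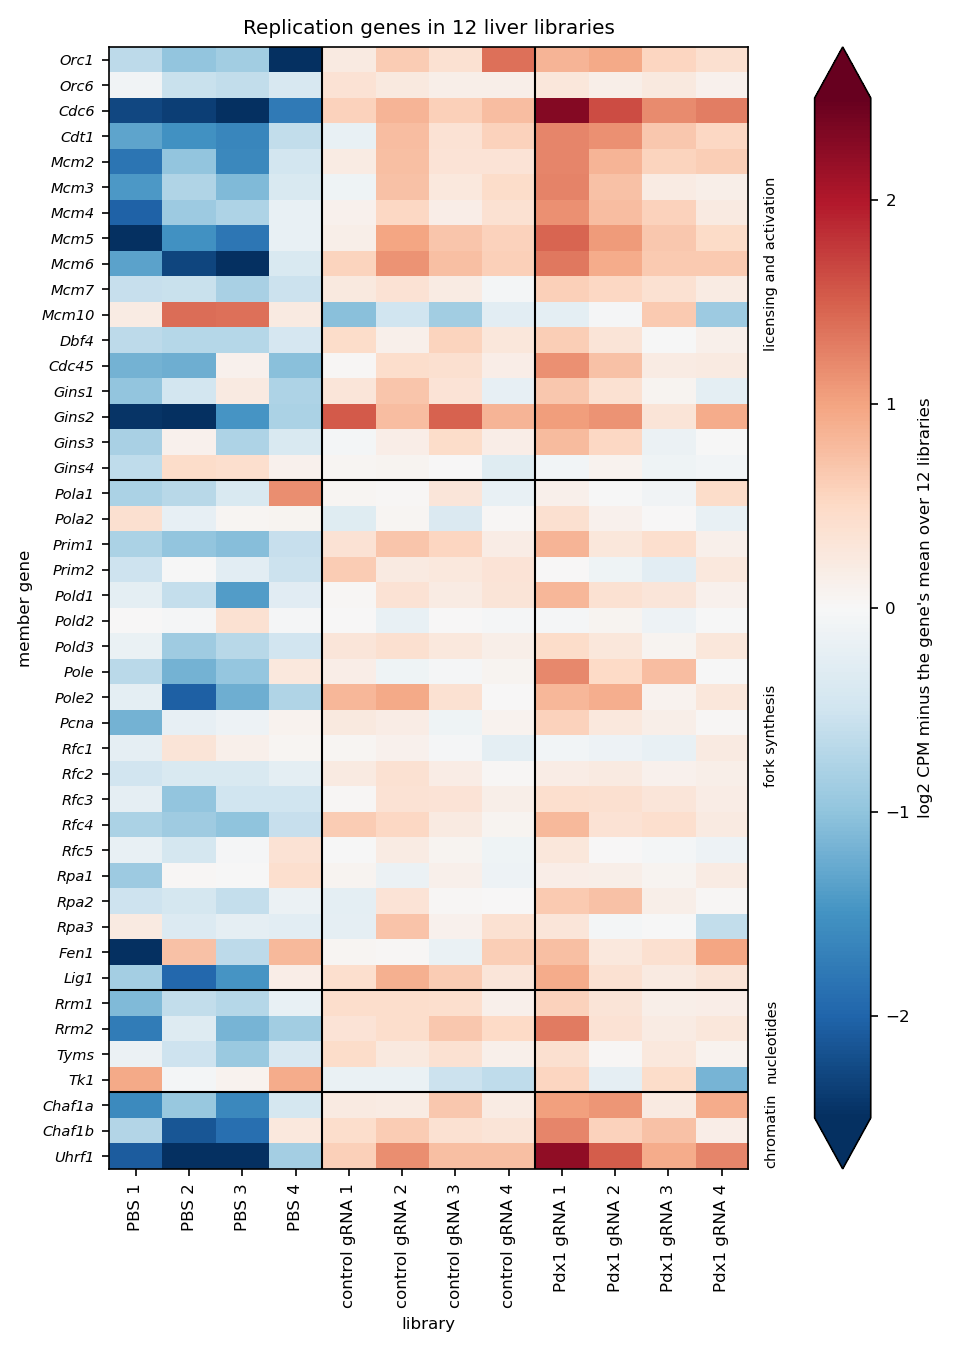
Level of each of the 44 replication genes (rows, grouped by role) in each of the 12 liver libraries (columns), as log2 CPM minus that gene's mean over the 12 libraries; red is above and blue below that mean. Most rows are blue in the 4 PBS columns and red in the 8 virus columns, while Mcm10 and, for control gRNA, Tk1 run the other way and Gins4, Pola2, Pold2, Rfc1 and Rfc5 show little pattern.

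The libraries ordered the same way when each was summarised by the median over the members of the log2 deviation from the 12-library mean. The 4 PBS libraries lay at -0.76, -0.65, -0.74 and -0.38, the control gRNA libraries at 0.21, 0.37, 0.29 and 0.15, and the Pdx1 gRNA libraries at 0.72, 0.37, 0.22 and 0.20. PBS library 4 was thus the highest of its group and Pdx1 gRNA library 1 the highest of all 12. Leaving out the Ddx3y-positive PBS libraries 2 and 3, a setting chosen after the data were seen, 18 members rose and 1 fell with control gRNA, beside 6.91% of all genes that rose and 14% called in all, and 14 rose with Pdx1 gRNA, beside 4.5% and 7.9%. The medians in that setting were 0.74 and 0.80.

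The sequence before the start of these genes was searched for E2F letters. Many genes of this list are transcribed under E2F factors. A high share of matches therefore comes with the choice of list and says nothing about these livers. RefSeq promoter windows of build GRCm38.p6, from 250 bases before the start to 50 after it, were matched for 37 of the 44 members. Mcm4, Gins1, Gins2, Gins4, Prim2, Pole and Rfc2 were not matched. RefSeq's start can differ from the outer end of the gene in the count files: the whole Cdc6 and Mcm7 windows lie inside the gene as those files place it. So do the bases nearest the start for several other members, among them Orc1, Uhrf1, Gins3, Pold1, Pold3 and Rfc3. All of those named but Uhrf1 hold E2F letters counted below. The E2F letters searched on both strands were TTTCCCGC, TTTCGCGC, TTTGCCGC and TTTGGCGC. They were found in 13 of 37 member windows (35.14%), against 2.33% of 27025 promoter windows of the same length, not matched for base content. In the 250 bases before the start alone they were in 8 of 37 (21.62%) and 1.92% of all. Among the 25 matched members that rose in at least 1 comparison with PBS, 11 held a match, and among the 12 others 2 did, Pola1 and Gins3. The CCAAT letters bound by NF-Y, searched on both strands, were in 23 of 37 (62.16%) and in 38.02% of all windows, and the CHR letters TTCGAA or TTTGAA, an element of mitotic promoters, in 7 of 37 (18.92%) and 19.49%. A match describes the letters only, and no binding was measured. A few promoters are shown, each as the 170 bases that end just before RefSeq's start, 5′ to 3′ on the gene's strand, with E2F matches (either strand, overlapping matches merged) in capitals. Mcm6 and Mcm5 are licensing genes that rose and hold a match, Pola1 holds a match and did not pass the test, and Uhrf1 rose without a match.
Mcm6 (chr1:128359706-128359875, minus strand): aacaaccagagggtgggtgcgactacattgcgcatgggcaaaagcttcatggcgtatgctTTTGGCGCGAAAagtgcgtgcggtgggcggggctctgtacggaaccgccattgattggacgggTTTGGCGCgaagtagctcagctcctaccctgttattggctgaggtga
Mcm5 (chr8:75109339-75109508, plus strand): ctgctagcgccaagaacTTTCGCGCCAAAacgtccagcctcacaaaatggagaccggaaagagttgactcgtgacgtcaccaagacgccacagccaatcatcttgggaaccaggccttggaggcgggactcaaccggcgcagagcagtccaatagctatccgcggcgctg
Pola1 (chrX:93632156-93632325, minus strand): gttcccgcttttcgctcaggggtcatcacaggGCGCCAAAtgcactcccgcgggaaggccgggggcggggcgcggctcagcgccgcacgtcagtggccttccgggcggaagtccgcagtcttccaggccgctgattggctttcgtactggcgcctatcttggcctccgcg
Uhrf1 (chr17:56303167-56303336, plus strand): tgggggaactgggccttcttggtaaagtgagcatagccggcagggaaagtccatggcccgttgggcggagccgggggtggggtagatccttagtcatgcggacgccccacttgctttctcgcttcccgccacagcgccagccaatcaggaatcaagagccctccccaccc
Mcm6 and Mcm5 each show overlapping matches on opposite strands, which read as 1 longer run of capitals, and Mcm6 has a further match nearer its start.

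Among the licensing and helicase genes, 13 of 17 rose with control gRNA, 1 fell and 3 did not pass, with a median log2 fold change of 1.13. With Pdx1 gRNA 13 of 17 rose, 0 fell and 4 did not pass, with a median of 1.52. Without PBS libraries 2 and 3 these counts were 9 and 8 higher and 0 lower. For scale, 16.3 and 11.7% of all genes tested rose as reported, and 6.91 and 4.5% without those libraries. Cdc6 (ENSMUSG00000017499.15, chromosome 11, 98907801 to 98923940, plus strand, mm10), the ORC partner that brings in the Mcm ring, moved most of all members. It was at 0.300, 0.285, 0.205 and 0.429 CPM in PBS libraries 1 to 4, at 2.24, 2.71, 2.28 and 2.55 CPM after control gRNA and at 7.35, 4.64, 3.40 and 3.66 CPM after Pdx1 gRNA. None of the 3 groups overlapped: every control gRNA library lay above every PBS library, and every Pdx1 gRNA library above every control gRNA library. The fold from PBS was 7.70 with control gRNA (log2 fold change 2.94 ± 0.35 SE, edgeR adjusted p = 0.000247) and 15 with Pdx1 gRNA (3.91 ± 0.35, edgeR adjusted p = 6.28e-05). Pdx1 gRNA exceeded control gRNA by log2 0.97 ± 0.28, with an unadjusted p of 0.00457 and an edgeR adjusted p of 0.809, so it did not pass, and Cdc6 was the 1 member whose Pdx1 gRNA libraries all lay above the control gRNA libraries.

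Cdt1, which acts with Cdc6 in loading and is destroyed once S phase begins, rose in both comparisons. Its levels were 3.06, 2.66, 2.46 and 4.94 CPM after PBS, 6.64, 12.9, 9.81 and 11.3 CPM after control gRNA and 17.8, 16.7, 12.2 and 10.9 CPM after Pdx1 gRNA. The PBS libraries lay below all 8 others, and the virus groups overlapped. The log2 fold changes were 1.62 ± 0.28 (edgeR adjusted p = 0.00153) and 2.12 ± 0.28 (edgeR adjusted p = 0.000634). Orc1, the ORC subunit whose level varies with the cell cycle, and Cdc6 were the rarest members per kilobase of exon after PBS, at 0.0736 and 0.0583 CPM per kb. Orc1 was at 0.256 ± 0.127 CPM (SD, n = 4) after PBS, 0.950 ± 0.375 after control gRNA and 0.934 ± 0.163 after Pdx1 gRNA. It rose by log2 1.86 and 1.84, and Orc6, another ORC subunit, by 0.62 and 0.59; for Orc6 with Pdx1 gRNA, leaving out PBS library 2 or 3 or Pdx1 gRNA library 1, 2 or 3 gave adjusted p-values of 0.0509 to 0.068. Dbf4, the activating subunit of the Cdc7 kinase, rose by 0.98 and 0.90.

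All 6 subunits of the Mcm2 to Mcm7 ring rose in both comparisons with PBS, with log2 fold changes from 0.81 (Mcm7) to 2.14 (Mcm6) after control gRNA and from 1.04 to 2.28, in the same genes, after Pdx1 gRNA. Mcm6 (ENSMUSG00000026355.11, chromosome 1, 128331590 to 128359664, minus strand), whose promoter is among those shown, was at 6.59, 3.42, 2.77 and 12.9 CPM after PBS. It reached 24.7, 36.3, 28.2 and 25.4 CPM after control gRNA and 41.8, 32, 26.4 and 26.2 CPM after Pdx1 gRNA, so the highest PBS library stayed below every virus library. Mcm2 was at 2.94, 5.23, 3.38 and 7.51 CPM after PBS, at 12.1, 17.5, 13.2 and 13.2 CPM after control gRNA and at 24.1, 18.7, 15.3 and 15.8 CPM after Pdx1 gRNA (log2 fold changes 1.55 ± 0.28 and 1.95 ± 0.28). Mcm7 was the steadiest within groups, at 20.5, 20.7, 17.4 and 21.0 CPM after PBS against 35.9, 39.1, 35.2 and 29.5 CPM and 45.8, 43.3, 39.7 and 35.1 CPM. Its change of 0.81 ± 0.13 with control gRNA had an edgeR adjusted p of 0.00102, and that of 1.04 ± 0.13 with Pdx1 gRNA an adjusted p of 0.000449. With PBS libraries 2 and 3 left out, Mcm2, Mcm6 and Mcm7 were called in both comparisons, Mcm3 with Pdx1 gRNA, and Mcm4 and Mcm5 in neither, where their adjusted p ranged from 0.0542 to 0.101.

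The helicase partners were uneven. Gins2, a GINS subunit, was at 0.360, 0.190, 0.717 and 1.14 CPM after PBS, at 5.78, 3.44, 5.59 and 3.60 CPM after control gRNA and at 4.14, 4.35, 2.49 and 3.81 CPM after Pdx1 gRNA. It rose by log2 2.91 ± 0.43 (edgeR adjusted p = 0.000715) and 2.6 ± 0.43 (edgeR adjusted p = 0.0019). Of its exon bases 67.32% are shared with Gse1 on the opposite strand, and the counting ignored strand, so its reads and those of Gse1 cannot be told apart there. Other called members that share over 10% of their exon bases were Chaf1a (18.74%), Rfc2 (15.1%), Rfc4 (12.65%), Mcm7 (12.58%) and Orc1 (10.81%). Rfc4 shares them with Eif4a2, which had 63651 counts over the 12 libraries beside 837 for Rfc4. Whether reads of the other genes enter these counts was not tested. Cdc45 rose by 1.00 and 1.38; PBS library 3, at 3.38 CPM, stood above the other PBS libraries, at 1.33 to 1.5 CPM, and reached into the range of the control gRNA group. With control gRNA the call of Cdc45 (edgeR adjusted p = 0.0384) was lost without any library of these groups but PBS library 3, at adjusted p-values of 0.0579 to 0.1, with the replicate number as a block (0.0584) and with only the 8 libraries compared (0.0635). Gins1, Gins3 and Gins4 did not pass in either comparison, with log2 fold changes of 0.75, 0.62 and -0.18 with control gRNA and 0.69, 0.77 and -0.18 with Pdx1 gRNA. Without PBS library 3 Gins1 rose in both (1.05 and 0.99, adjusted p = 0.0264 and 0.0453), and without PBS library 1 Gins4 fell in both (-0.38 and -0.37, adjusted p = 0.0339 and 0.0443).

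Mcm10, a factor that helps to turn on the helicase and tethers polymerase alpha, was the exception. Its level (ENSMUSG00000026669.14, chromosome 2, 4989714 to 5012791, minus strand) was 56.2, 128, 127 and 56.7 CPM in PBS libraries 1 to 4. It was 23.7, 34.4, 26.5 and 40.5 CPM after control gRNA and 41.0, 47.7, 76.8 and 25.8 CPM after Pdx1 gRNA. All 4 control gRNA libraries lay below all 4 PBS libraries, and it fell by 1.56 on the log2 scale (SE 0.36, edgeR adjusted p = 0.00663); with Pdx1 gRNA the change was -0.94 ± 0.35, with groups that overlapped and an edgeR adjusted p of 0.073. The 2 highest PBS libraries were the Ddx3y-positive ones, and without them the log2 fold change with control gRNA was -0.88 with an adjusted p of 0.101. With Pdx1 gRNA, leaving out PBS library 1 gave -1.12 (adjusted p = 0.0365) and leaving out Pdx1 gRNA library 3, the highest of its group, gave -1.27 (adjusted p = 0.0277), and DESeq2 on all libraries gave -0.97 (adjusted p = 0.0343). Mcm10 shares no exon base with another gene. Its neighbour Optn, 7851 bases away on the same strand, fell with control gRNA (log2 fold change -0.63, edgeR adjusted p = 0.0133). With Pdx1 gRNA Optn was at -0.45 (edgeR adjusted p = 0.0685), and whether its reads enter the count of Mcm10 was not tested. Per kilobase of exon Mcm10 was the third most abundant member after PBS, at 12.0 CPM per kb, near Gins4 (13.2) and Pcna (12.5), while the subunits of the ring that it works with ranged from 0.685 (Mcm2) to 4.50 (Mcm7) CPM per kb.

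**Figure D2:**
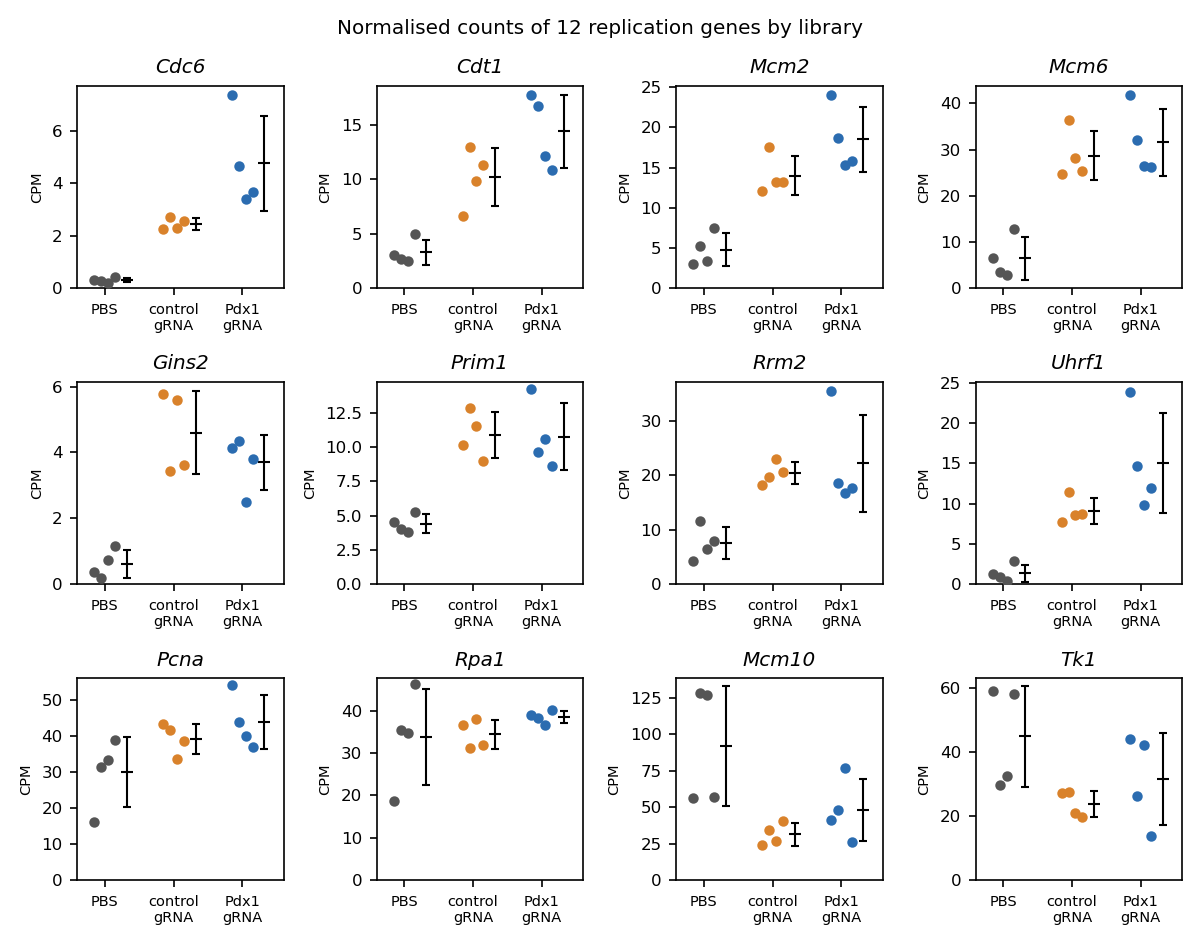
CPM of 12 replication genes (vertical axes start at 0) in each library of the 3 groups, replicates 1 to 4 from left to right; points are libraries, and the bar beside them is the mean ± SD (n = 4). In the upper 8 panels every PBS library lies below every virus library, in Pcna and Rpa1 the groups overlap, and in Mcm10 PBS libraries 2 and 3, at 128 and 127, lie above the rest.

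Of the 20 genes that act at the fork itself, 9 rose with control gRNA and 11 did not pass, and 10 rose with Pdx1 gRNA and 10 did not pass; none fell. The shares of all genes that rose were 16.3 and 11.7%. Without PBS libraries 2 and 3 the counts were 5 and 3 (25 and 15%, beside 6.91 and 4.5% of all genes). With control gRNA Rfc3, Pold1, Pole2 and Lig1 lost their calls there (adjusted p from 0.0587 to 0.138). With Pdx1 gRNA Prim1, Rfc3 and Rfc4 were those called. Their median log2 fold changes, 0.51 and 0.59, were lower than those of the licensing genes, a difference that was not tested. Prim1, the catalytic primase subunit, was at 4.56, 3.99, 3.79 and 5.29 CPM after PBS, at 10.2, 12.9, 11.6 and 8.98 CPM after control gRNA and at 14.2, 9.66, 10.6 and 8.64 CPM after Pdx1 gRNA. The PBS libraries lay below all others, and it rose by log2 1.30 ± 0.20 (edgeR adjusted p = 0.000903) and 1.28 ± 0.20 (edgeR adjusted p = 0.00154). Its partner Prim2 rose with control gRNA (0.70 ± 0.21, edgeR adjusted p = 0.0217) and was at 0.31 ± 0.21 with Pdx1 gRNA (edgeR adjusted p = 0.3); its call was lost without control gRNA library 1 (adjusted p = 0.0865), without PBS library 4 (0.0535) and with the replicate number as a block (0.0511). The polymerase alpha subunits that the primase binds did not pass in either comparison: Pola2 was at -0.23 and 0.01, and Pola1 at -0.02 and 0.06. For Pola1, PBS libraries 1 to 4 held 3.60, 3.90, 4.82 and 14.1 CPM, against 5.54 to 7.74 CPM after control gRNA and 5.89 to 8.58 CPM after Pdx1 gRNA. Without PBS library 4 Pola1 rose by 0.68 with control gRNA (adjusted p = 0.0371) and by 0.76 with Pdx1 gRNA (adjusted p = 0.0339), so that library decided the result.

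Polymerase delta and epsilon genes also split within each enzyme. Pold3, an accessory subunit of polymerase delta, rose from 16.2, 9.79, 11.3 and 13.2 CPM after PBS to 22.6, 24.2, 22 and 20.1 CPM after control gRNA and 25.1, 22.2, 19.2 and 22.1 CPM after Pdx1 gRNA (log2 0.81 ± 0.16 in both). The catalytic Pold1 rose by 0.79 (0.75 with an adjusted p of 0.0505 without control gRNA library 2) and 0.99, whereas Pold2, another subunit, was at -0.14 and -0.11 and did not pass. Pole, the catalytic subunit of polymerase epsilon, was at 3.42, 2.38, 2.77 and 6.51 CPM after PBS, 6.12, 5.06, 5.30 and 5.71 CPM after control gRNA and 12.5, 7.67, 9.22 and 5.38 CPM after Pdx1 gRNA. It rose with Pdx1 gRNA (1.19 ± 0.32, edgeR adjusted p = 0.021), though PBS library 4 overlapped the lowest Pdx1 gRNA library, and was at 0.55 ± 0.32 with control gRNA (edgeR adjusted p = 0.213); the direct contrast of Pdx1 gRNA with control gRNA, 0.65 ± 0.31, had an adjusted p of 0.809. Without PBS library 4 Pole also rose with control gRNA (0.95, adjusted p = 0.0278), and with Pdx1 gRNA its call was lost without PBS library 2 or 3 or Pdx1 gRNA library 1 (adjusted p from 0.059 to 0.0652). Pole2, the second epsilon subunit, rose by 1.47 and 1.46 from a PBS mean of 0.633 CPM, and the latter call was lost without PBS library 2 or 3 or Pdx1 gRNA library 1 or 2 (adjusted p from 0.0525 to 0.0586).

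The clamp and its loader showed the same mixture. Pcna, the sliding clamp, was at 16.1, 31.6, 33.5 and 38.8 CPM after PBS, 43.4, 41.6, 33.8 and 38.6 CPM after control gRNA and 54.3, 44.1, 40.2 and 37.0 CPM after Pdx1 gRNA. The groups overlapped, and the log2 fold changes of 0.39 ± 0.22 and 0.55 ± 0.22 did not pass (edgeR adjusted p = 0.198 and 0.0975). On library sizes with no factors, where the median of all genes was 0.35 and 0.28 higher, they were 0.76 and 0.84 and passed (adjusted p = 0.0166 and 0.0152). Of the RFC subunits, Rfc2, Rfc3 and Rfc4 rose in both comparisons, by 0.58, 0.75 and 1.18 with control gRNA and by 0.54, 0.86 and 1.27 with Pdx1 gRNA. Rfc4 was at 2.04, 1.90, 1.74 and 2.36 CPM after PBS and at 3.71 to 6.16 CPM in the virus libraries. Rfc2, at 21.2 to 24.8 CPM after PBS and 30.1 to 38.3 CPM in the virus libraries, was the smallest rise among these 3 with the tightest error, 0.11. The large subunit Rfc1 and the small subunit Rfc5 did not pass, at -0.10 and 0.08 with control gRNA and at -0.11 and 0.08 with Pdx1 gRNA.

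Of the single-strand binding complex, Rpa2 rose with Pdx1 gRNA (0.84, edgeR adjusted p = 0.0132) and was at 0.47 with control gRNA (edgeR adjusted p = 0.096). Rpa1 was at 18.6 to 46.3 CPM in PBS libraries, 31.3 to 38.0 CPM in control gRNA libraries and 36.5 to 40.2 CPM in Pdx1 gRNA libraries, and neither it nor Rpa3 passed. Lig1, the ligase that joins Okazaki fragments, rose by 1.37 and 1.28; with Pdx1 gRNA its adjusted p was 0.0244, and 0.0542 to 0.0684 without PBS library 2 or 3 or Pdx1 gRNA library 1. Fen1, the nuclease that trims those fragments, had a mean of 1.00 to 1.51 CPM in the 3 groups and did not pass; 84.19% of its exon bases are shared with other genes, so its counts are uncertain.

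**Figure D3:**
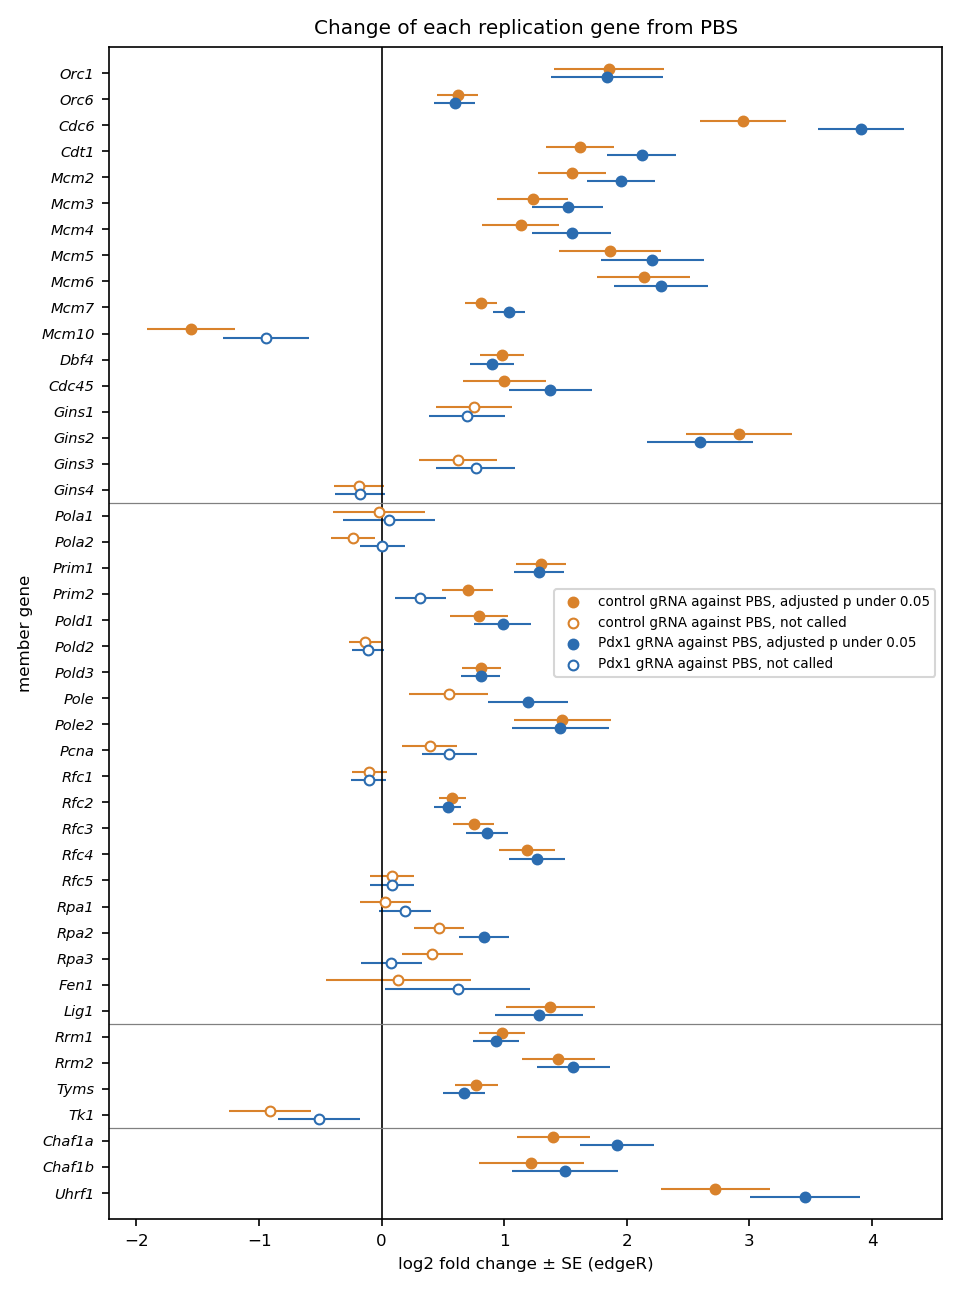
Log2 fold change from PBS (horizontal axis, ± SE, edgeR) of each of the 44 genes with control gRNA (orange) and Pdx1 gRNA (blue); filled points passed an adjusted p of 0.05 and the lines separate the 4 roles. Cdc6, Gins2 and Uhrf1 lie farthest to the right, Mcm10 and Tk1 lie left of 0 in both comparisons, and 11 of the 20 fork genes have open orange points.

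Of the 4 nucleotide supply genes 3 rose in each comparison, and 2 and 1 without PBS libraries 2 and 3. Beside them 16.3 and 11.7% of all genes rose, and 6.91 and 4.5% without those libraries. Rrm2, the regulated subunit of ribonucleotide reductase, was at 4.32, 11.5, 6.45 and 7.87 CPM after PBS, 18.2, 19.6, 23.0 and 20.5 CPM after control gRNA and 35.5, 18.6, 16.8 and 17.7 CPM after Pdx1 gRNA. It rose by 1.44 ± 0.30 (edgeR adjusted p = 0.00381) and 1.56 ± 0.30 (edgeR adjusted p = 0.00387), and Pdx1 gRNA library 1 stood above the other 3 of its group. Rrm1, the large subunit, went from 7.37, 10.4, 9.63 and 14.0 CPM to 21.6, 21.6, 21.1 and 17.3 CPM and 23.6, 19.8, 17.7 and 17.8 CPM, a rise of 0.98 ± 0.19 and 0.93 ± 0.19. Tyms, which makes thymidylate, rose by 0.77 and 0.67. Tk1, the salvage kinase for thymidine, went the other way, at 59.0, 29.6, 32.6 and 58.0 CPM after PBS, 27.2, 27.3, 21.0 and 19.7 CPM after control gRNA and 44.1, 26.2, 42.0 and 13.7 CPM after Pdx1 gRNA. The control gRNA libraries all lay below the PBS libraries, and the log2 fold change of -0.91 ± 0.33 had an edgeR adjusted p of 0.0525. It passed with DESeq2 size factors (0.045), a stricter filter (0.0473), DESeq2 (0.023) and only the 8 libraries compared (0.0242). With Pdx1 gRNA it was -0.51 ± 0.33 (edgeR adjusted p = 0.29). Here the higher PBS libraries were 1 and 4, the opposite pair from Mcm10, and without libraries 2 and 3 Tk1 was called lower with control gRNA (-1.32, adjusted p = 0.0317), as it was without library 2 alone (-1.07, adjusted p = 0.0413). Its neighbour Afmid on the opposite strand shares 1.6% of the exon bases of Tk1 and fell by 2.01 on the log2 scale (edgeR adjusted p = 0.00198) with control gRNA; whether its reads enter the count of Tk1 was not tested.

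All 3 genes of chromatin behind the fork rose in both comparisons, and 2 of them, Uhrf1 and Chaf1a, also did so without PBS libraries 2 and 3. Among all genes 16.3 and 11.7% rose, and 6.91 and 4.5% without those libraries. Uhrf1, which recognises hemimethylated DNA and brings in the maintenance methyltransferase, was at 1.20, 0.855, 0.410 and 2.86 CPM after PBS, 7.72, 11.4, 8.61 and 8.65 CPM after control gRNA and 23.9, 14.7, 9.82 and 11.9 CPM after Pdx1 gRNA. The fold was 6.59 with control gRNA (log2 2.72 ± 0.44, edgeR adjusted p = 0.00115) and 10.9 with Pdx1 gRNA (3.45 ± 0.45, edgeR adjusted p = 0.000599). Its position is chromosome 17, 56303321 to 56323486, plus strand. Chaf1a, the large subunit of the histone chaperone CAF-1, was at 1.44, 2.28, 1.43 and 3.22 CPM after PBS, 5.15, 5.06, 6.95 and 5.04 CPM after control gRNA and 8.91, 9.43, 5.14 and 8.33 CPM after Pdx1 gRNA, a rise of 1.4 ± 0.30 and 1.92 ± 0.30. Chaf1b, the next subunit, rose by 1.22 ± 0.43 and 1.5 ± 0.43, with PBS library 4 at 4.58 CPM inside the range of the Pdx1 gRNA group (4.27 to 8.91). Its call with control gRNA (edgeR adjusted p = 0.0445) was lost without any library of these groups but PBS library 4 (adjusted p from 0.0572 to 0.11) and with the replicate number as a block (0.0535). Its call with Pdx1 gRNA (edgeR adjusted p = 0.0264) was lost without PBS library 2 or 3 or Pdx1 gRNA library 1 (0.0611 to 0.0738).

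Other genes of the same process also rose more often than they fell. Of 48 further replication and S phase genes, such as Rnaseh2b, a ribonuclease H2 subunit, Chtf18, of an alternative clamp loader, and Clspn, a checkpoint mediator, 17 rose and 3 fell with control gRNA (median 0.36), and 15 rose and 1 fell with Pdx1 gRNA (median 0.41). Of all genes tested 16.3% rose with control gRNA and 11.7% with Pdx1 gRNA. Without PBS libraries 2 and 3, 7 and 3 of the 48 rose and 0 fell (14.6 and 6.25% higher, beside 6.91 and 4.5% of all genes). Rnaseh2b, Chtf18 and Clspn rose by 0.98, 2.52 and 2.30 with control gRNA. Of 36 E2F and G1/S control genes, 15 rose and 2 fell in each comparison, with medians of 0.47 and 0.48. Leaving out PBS libraries 2 and 3, 7 rose and 2 fell with control gRNA and 5 rose and 0 fell with Pdx1 gRNA. The members with the smallest p there were the cyclin-dependent kinase inhibitors Cdkn1a (log2 3.42 ± 0.38, edgeR adjusted p = 0.00016) and Cdkn2c (1.68), which restrain entry into S phase, and the growth regulator Myc (3.22 ± 0.38, edgeR adjusted p = 0.000238). Cdkn1a was at 4.10 to 7.80 CPM after PBS, 47.5 to 83.5 CPM after control gRNA and 39.2 to 136 CPM after Pdx1 gRNA.

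Mitosis genes had the larger medians, a difference that was not tested. Of 32, 30 rose with control gRNA (median log2 fold change 2.1) and 22 with Pdx1 gRNA (1.77), and none fell, where 16.3 and 11.7% of all genes rose. Cdk1, the mitotic kinase, rose by 2.68 and 2.25, the spindle checkpoint gene Mad2l1 by 1.80 and 1.5, and the kinase Aurkb by 3.06 and 2.52. Between the virus groups 0 mitosis genes were called, with a median of -0.31, where the members' median was 0.13. Without PBS libraries 2 and 3, 13 and 6 of 32 rose (40.6 and 18.8%, beside 6.91 and 4.5% of all genes), with medians of 1.4 and 1.14. The PBS libraries were spread more widely for this list than for the members, with library medians from -2.42 to -0.13 against -0.76 to -0.38. The Ddx3y-positive PBS libraries 2 and 3 were the lowest, at -2.35 and -2.42, and libraries 1 and 4 were at -1.18 and -0.13.

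**Figure D4:**
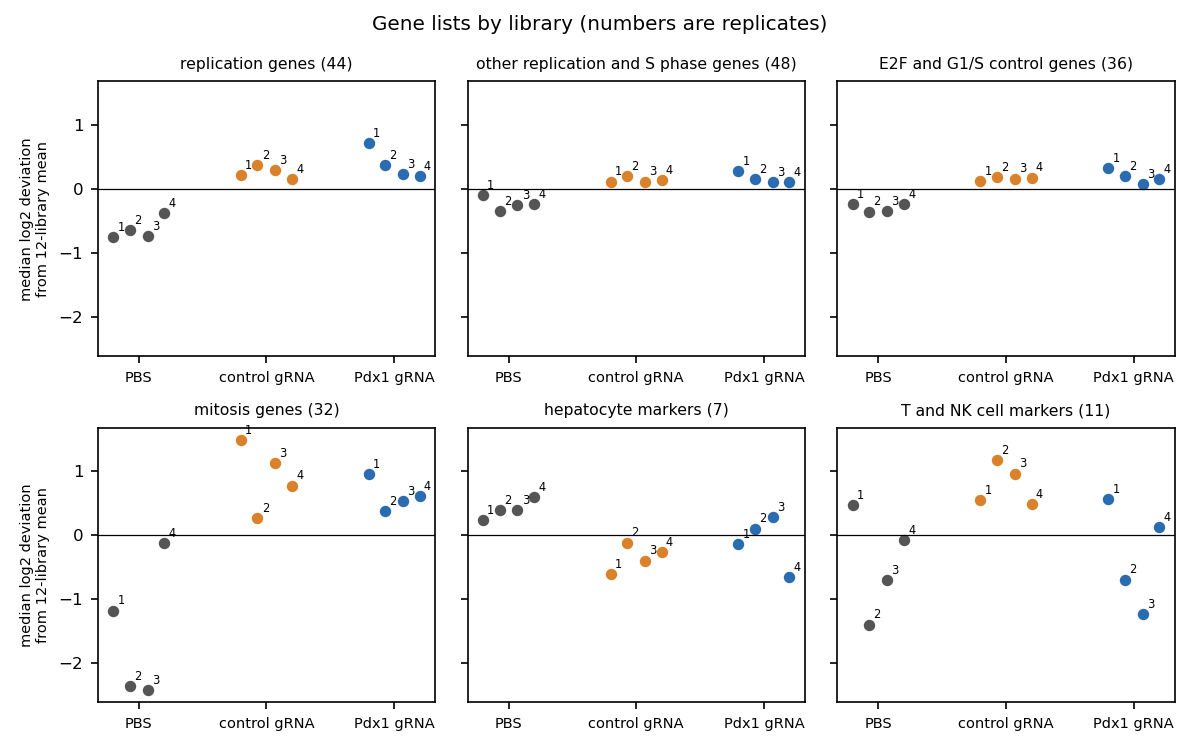
Median over each gene list (number of tested genes in brackets) of log2 CPM minus the gene's mean over 12 libraries, by library; digits are replicate numbers and the line is at 0. The replication, S phase, E2F and mitosis lists separate PBS from virus libraries, while the T and NK cell list, at -1.4 to 0.47 in PBS libraries, overlaps with the Pdx1 gRNA libraries (-1.24 to 0.56) and lies below the control gRNA libraries (0.48 to 1.18).

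Some markers of liver cell types were called beside these genes, and their part in the results was not tested. For scale, 16.3% of all genes tested rose and 15.8% fell with control gRNA, and 11.7% rose and 10.4% fell with Pdx1 gRNA. Counts such as 2 of 11 T and NK cell markers higher or 1 of 9 stellate and fibroblast markers lower with control gRNA were near or below those shares. Of 7 hepatocyte markers 4 fell with control gRNA (Apoa1, Hnf4a, Cps1 and Pck1) and 1 with Pdx1 gRNA (Pck1); their summed level was 78848 to 119277 CPM in PBS libraries, 50878 to 69244 CPM in control gRNA libraries and 48831 to 102064 CPM in Pdx1 gRNA libraries. Of 11 tested T and NK cell markers Cd8a and Cd8b1 rose with control gRNA and 0 were called with Pdx1 gRNA, and the sums were 6.84 to 14.7, 15 to 24.6 and 4.38 to 15.7 CPM. Of 10 macrophage and monocyte markers Cd68, Ctss and Ccr2 rose with control gRNA and 0 were called with Pdx1 gRNA (146 to 601, 229 to 706 and 179 to 486 CPM). This list was mixed, with negative log2 fold changes for 3 of 10 markers with control gRNA and 6 with Pdx1 gRNA. Of 7 tested cholangiocyte markers Epcam, Sox9 and Spp1 rose with control gRNA and 0 with Pdx1 gRNA (45.3 to 119, 104 to 465 and 73.4 to 140 CPM). Erythroid markers fell in 4 of 6 with control gRNA and 2 of 6 with Pdx1 gRNA (325 to 455, 57.2 to 213 and 81.3 to 182 CPM), and sinusoidal endothelial markers in 2 of 8 and 4 of 8 (222 to 585, 167 to 287 and 137 to 248 CPM). Of 9 stellate and fibroblast markers 1 (Reln) fell with control gRNA and 0 were called with Pdx1 gRNA (350 to 510, 275 to 881 and 174 to 351 CPM). Neutrophil markers (3 tested; 3.79 to 13.8, 8.53 to 14.0 and 3.63 to 5.97 CPM) and B and plasma cell markers (5 tested; 3.80 to 14.3, 6.72 to 18.9 and 7.25 to 12.9 CPM) had 0 calls. The T and NK cell sums of the control gRNA libraries lay above those of all PBS libraries, and the macrophage and cholangiocyte sums overlapped between these groups. With PBS libraries 2 and 3 left out, 0 T and NK cell, macrophage or cholangiocyte markers were called. There, 1 hepatocyte marker fell with control gRNA and 0 with Pdx1 gRNA, and 4 and 0 erythroid markers fell. Sinusoidal endothelial markers still fell in 2 of 8 with control gRNA and 3 of 8 with Pdx1 gRNA (25 and 37.5%). With Pdx1 gRNA 1 of 4 neutrophil markers tested there and 1 of 9 stellate and fibroblast markers also fell. The share of all genes called in that setting was 14% with control gRNA and 7.9% with Pdx1 gRNA. Gata1 and Ly6g were at 1 and 3 counts over all 12 libraries.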

How the data were processed

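Polyadenylated liver RNA was sequenced in 12 libraries, 4 per group. The deposited values are unnormalised fragment counts per gene, made, per the file headers, by featureCounts 1.4.6-p4 without regard to strand, both ends of a pair required to map, exons summed by gene on GENCODE M13. Per the submitters' processing notes, Trimmomatic 0.32, STAR 2.4.1a, DESeq2 1.22.0 and R 3.5.1 were used, on build mm10 (GRCm38). Of 50600 genes, 50376 matched a symbol by identifier.

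Genes were filtered with filterByExpr (minimum count 10), scaled by TMM and fitted over all 12 libraries with edgeR 4.0.16 (robust quasi-likelihood test, two-sided) in R 4.3.3, with Benjamini-Hochberg adjustment over 15219 genes in each of 3 comparisons. Calls needed an adjusted p under 0.05; "rose" and "fell" mean called. CPM use TMM-scaled library sizes. The plots of deviations add 0.01 CPM before taking log2. The fit was tested on simulated data. No library was a copy of another (chi-square over degrees of freedom at least 21.7 for all pairs).

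The members and lists were chosen with earlier results of these data known, so no test of a list was run. Members with values in every library were those with the smallest p per role in each comparison with PBS, 5 for licensing and for fork genes and 2 for the other roles, and the 3 with the smallest p between virus groups. Mcm6, Pcna, Pola1, Mcm10 and Tk1 were added after their values were seen. For Rfc2, Rfc3, Rfc4 and Pola1 not every library value is given in the text. Alternatives were other scalings and filters, DESeq2 1.42.0, limma-voom 3.58.1, edgeR without robust estimation, the 8 libraries compared alone, a fold threshold of 1.5, a replicate block and each library left out. Added after the data were seen were PBS libraries 2 and 3 left out and only members sharing no exon base with another gene. Promoter letters are from RefSeq, GRCm38.p6.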

Additional observations from a re-analysis of the deposited data

Results flagged for a closer look

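In 10 of 132 groups of 4 libraries (44 genes in 3 groups), the highest or lowest library stood apart by Dixon's criterion, which chance meets in about 1 in 20 groups. In the PBS group, library 4 was the highest for Pola1 (14.1 CPM, the next 4.82) and Dbf4 (6.37 CPM, the next 5.40). PBS library 3 was the highest for Cdc45 (3.38 CPM, the next 1.5) and Pold2 (19.3 CPM, the next 14.9) and the lowest for Mcm7 (17.4 CPM, the next 20.5). PBS library 1 was the highest for Rpa3, at 8.21 CPM. In the control gRNA group, library 4 was the lowest for Rrm1 (17.3 CPM, the next 21.1) and Gins4 (13.0 CPM, the next 16.1), and library 3 was the highest for Chaf1a (6.95 CPM, the next 5.15). In the Pdx1 gRNA group, library 1 was the highest for Rrm2, at 35.5 CPM where the next was 18.6.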

How the results depend on the processing

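Of the 29 members called in each comparison with PBS, 15 with control gRNA and 14 with Pdx1 gRNA were called in every setting but the fold threshold, and 25 and 24 with any 1 library omitted. A fold threshold of 1.5 left 13 and 14 members and 1358 and 595 genes; leaving out PBS libraries 2 and 3 (fewer samples) left 19 and 14 members and 2258 and 1277 genes. Library sizes with no factors moved the members' medians to 1.14 and 1.20 and the median of all genes by 0.35 and 0.28, with 80.6 and 81.3% of calls higher (50.9 and 53% as reported); upper-quartile factors gave 0.11 and 61.8% with control gRNA. Of the 30 members sharing no exon base, 20 were called with control gRNA (19 higher, 1 lower) and 19 with Pdx1 gRNA, all higher. Of all 44 members 29 were called in each, and of all genes 32.1 and 22.1%. With only the 8 libraries compared, 2017 genes were called for Pdx1 gRNA against PBS and 1 between virus groups, where DESeq2 called 14. The 8 libraries alone lost Cdc45 and Chaf1b with control gRNA and Orc6, Pole, Lig1 and Chaf1b with Pdx1 gRNA; no filter lost Prim2 with control gRNA and Orc6 with Pdx1 gRNA. Library sizes with no factors added Gins1, Gins3 and Pcna in both and Pole, Rpa2 and Rpa3 with control gRNA, and upper-quartile factors added Gins1 with control gRNA. E2F letters before the start alone were in 8 windows. Leaving out 1 library in turn gave 26 to 29, 24 to 31 and 0 members, 3445 to 6875, 2132 to 5421 and 0 to 1 genes, and medians of 0.76 to 0.87, 0.83 to 1.06 and 0.02 to 0.19; for Pdx1 gRNA against PBS the genes were 5421 without PBS library 1 and 2132 without Pdx1 gRNA library 4. With the replicate number as a block 26, 29 and 0 members and 4127, 2553 and 0 genes were called. Only 2 of 12 same-numbered pairs correlated above 0.1, and 1 library correlated best with its own number. The labels do not say whether the numbers pair libraries, and with 4 libraries per group these correlations cannot exclude it. Members near 0 that passed no test as reported changed sign; the cause was not tested. With control gRNA, Pola1 was at 0.09 and Rfc1 at 0.020 (upper-quartile factors); Gins4, Pola1, Pola2, Pold2 and Rfc1 at 0.19, 0.34, 0.10, 0.23 and 0.26 (library sizes); Pola1 at 0.018 (no filter), 0.22 (limma-voom) and 0.19 (replicate block); and Gins4, Rfc1 and Rfc5 at 0.15, 0.033 and -0.092 (PBS libraries 2 and 3 left out). With Pdx1 gRNA, Pola2 was at -0.0115 (DESeq2 size factors), -0.0064 (stricter filter), -0.0148 (DESeq2) and -0.0145 (limma-voom); Gins4, Pold2 and Rfc1 at 0.12, 0.17 and 0.19 (library sizes); and Gins4, Pola1, Pola2, Rfc1, Rfc5 and Rpa3 at 0.16, -0.37, -0.15, 0.040, -0.085 and -0.064 (PBS libraries 2 and 3 left out). With each library left out in turn, Fen1, Pola1, Rfc5 and Rpa1 ran from -0.30 to 0.57, -0.23 to 0.68, -0.027 to 0.25 and -0.18 to 0.22 with control gRNA. Pola1, Pola2, Rfc5, Rpa1 and Rpa3 ran from -0.15 to 0.76, -0.11 to 0.12, -0.027 to 0.25, -0.01 to 0.38 and -0.067 to 0.22 with Pdx1 gRNA. Depth limits the rarest genes: Orc1 and Cdc6 were under 0.5 CPM in every PBS library.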
